A study of Mus musculus with 17 samples.

Results

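The genes described are 8 of the 19752 that the arrays name: the neuropeptide precursors Tac1, Tac2, Nts, Npy, Gal, Vip and Oxt, and Crhbp, which encodes the secreted binding protein of corticotropin-releasing hormone. They were chosen by name from a larger set of results on these same arrays, and which values led to each choice is not recorded, except that Tac2 and Nts had been listed among transcripts lower without Aire. Each gene has 1 probe set with a single symbol. Of the 8, 7 were bright enough to be tested, meaning that at least 2 of the 17 arrays placed the probe set over their 40th percentile. Vip was not: it lay between the percentiles 8.2 and 26.2 on every array, and its values are given without a test.

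Neuropeptides are made as longer precursors, cut by proteases in secretory granules of neurons and endocrine cells, and act on receptors that are mostly G protein-coupled. The thymic medulla also transcribes genes of this kind, because its epithelial cells show maturing T cells the antigens of many organs. Aire is the transcriptional regulator behind much of that display, and oxytocin and neurotensin precursors are among the peptide genes long studied in the thymus.

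RNA came from medullary epithelial cells sorted as CD45- Ly51- with high MHC class II from the thymus of C57BL/6 mice, labelled as of mixed sex. All groups, wild type (WT) and Aire knockout (KO) alike, carry the Adig reporter, an Igrp-GFP fusion driven by Aire, so that GFP+ cells are those in which the Aire locus is active, in the knockout too. The WT GFP- cells came from adults of 5 weeks (arrays 6, 7 and 8) and from perinates labelled 3 days old (arrays 1 and 2), although the series text gives the perinates as 0 to 3 days. The WT GFP+ cells came from adults (arrays 6, 7 and 8) and perinates (arrays 5, 6 and 7), and the KO GFP+ cells from adults (arrays 1, 2 and 3) and perinates (arrays 1, 2 and 3). There were no KO GFP- arrays. Nothing in the labels says whether arrays of a group came from separate animals or from pools, so the p-values reflect no more than how these samples varied, and that variation may be technical. In bulk samples such as these, fewer cells making a transcript and less of it per cell cannot be told apart.

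The labelled cell type was checked against its markers. Epcam, the epithelial adhesion molecule, read 1967 to 4031 over the 17 arrays, and the leukocyte marker Ptprc read 81.7 to 301. Of 10 medullary epithelial markers, all were tested and 0 were called between KO and WT at either age (limma, adjusted p under 0.05). The probe set of Aire read 4355 to 6196 in adult WT and 4689 to 5241 in adult KO GFP+ cells, and since the labels do not say which part of the gene was removed, it does not check the genotype. G6pc2, the gene of Igrp, read 7144 to 9690 on the GFP+ arrays and 254 to 1725 on the GFP- arrays. Perinate KO arrays 2 and 3 stood apart from the other 15: the Y-linked Uty read 16.1 to 19.2 there and 169 to 366 elsewhere, and Xist read 5167 to 5203 against 2104 to 4509. So little Uty reads as RNA from females alone, against the mixed sex of the labels. Sex is then uneven between KO and WT perinates, and its part in the differences was not tested. The perinate KO comparison is given with and without these 2 arrays.

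Tac2, Nts, Npy and Gal were much lower and Crhbp higher in KO cells, and their upstream sequences are printed first. Each is the 250 bases before the RefSeq start in GRCm38.p6, 5' to 3' on the gene's own strand, with capitals marking the short cAMP response motif TGACG, which reads CGTCA when it lies on the opposite strand. The stretches lie at chr10:127724228-127724477 (plus strand) for Tac2, chr10:102490419-102490668 (minus) for Nts, chr6:49822460-49822709 (plus) for Npy, chr19:3414545-3414794 (minus) for Gal and chr13:95444832-95445081 (minus) for Crhbp.
Tac2: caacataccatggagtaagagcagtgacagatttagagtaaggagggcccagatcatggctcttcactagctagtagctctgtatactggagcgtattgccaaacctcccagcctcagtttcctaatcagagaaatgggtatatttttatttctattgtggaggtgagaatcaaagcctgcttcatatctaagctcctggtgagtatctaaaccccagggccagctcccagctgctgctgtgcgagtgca
Nts: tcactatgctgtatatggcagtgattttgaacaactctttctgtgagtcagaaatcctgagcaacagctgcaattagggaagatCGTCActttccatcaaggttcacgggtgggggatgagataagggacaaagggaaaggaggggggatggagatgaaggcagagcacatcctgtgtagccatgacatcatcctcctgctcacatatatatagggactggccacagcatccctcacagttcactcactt
Npy: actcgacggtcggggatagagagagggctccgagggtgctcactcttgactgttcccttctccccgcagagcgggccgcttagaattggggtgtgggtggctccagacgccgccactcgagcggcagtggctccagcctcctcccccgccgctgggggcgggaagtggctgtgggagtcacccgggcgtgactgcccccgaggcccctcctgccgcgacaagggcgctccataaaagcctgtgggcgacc
Gal: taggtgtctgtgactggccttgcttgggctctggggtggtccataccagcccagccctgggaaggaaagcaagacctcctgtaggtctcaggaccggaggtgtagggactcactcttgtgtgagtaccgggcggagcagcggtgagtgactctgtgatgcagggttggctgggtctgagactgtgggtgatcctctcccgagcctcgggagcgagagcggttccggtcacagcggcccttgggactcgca
Crhbp: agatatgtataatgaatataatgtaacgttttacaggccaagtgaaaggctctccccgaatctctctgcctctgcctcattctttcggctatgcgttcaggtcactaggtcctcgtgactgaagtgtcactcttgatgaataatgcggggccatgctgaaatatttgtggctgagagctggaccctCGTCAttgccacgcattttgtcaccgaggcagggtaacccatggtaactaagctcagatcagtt

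The sequences do not share a base composition. Npy is 69.2% G and C with 21 CpG dinucleotides, and Gal is 62.4% with 11, while Tac2 holds 47.2% and 2, Nts 48% and 2, and Crhbp 47.2% and 9. The median over 32851 RefSeq promoters of the same length was 52.4% with 6 CpG. TGACG was found on the opposite strand 166 bases before the start of Nts and 64 before that of Crhbp, and not in these windows of Tac2, Npy and Gal. It was also found upstream of Tac1 (197 and 43 bases before the start, opposite strand) and Vip (79 before, same strand), and it occurs on either strand in 17.8% of all promoters. The full palindrome TGACGTCA, which contains TGACG on each strand, is in 1.55% of promoters and in none of these 8 windows. TATAAA, searched on both strands like CCAAT, was found upstream of Vip alone, 157, 147 and 30 bases before the start, against 12.4% of promoters. CCAAT was found opposite Tac1 (231 bases before) and Npy (166 before) and in 33.8% of promoters. These matches are a description of the letters in the windows.

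**Figure D1:**
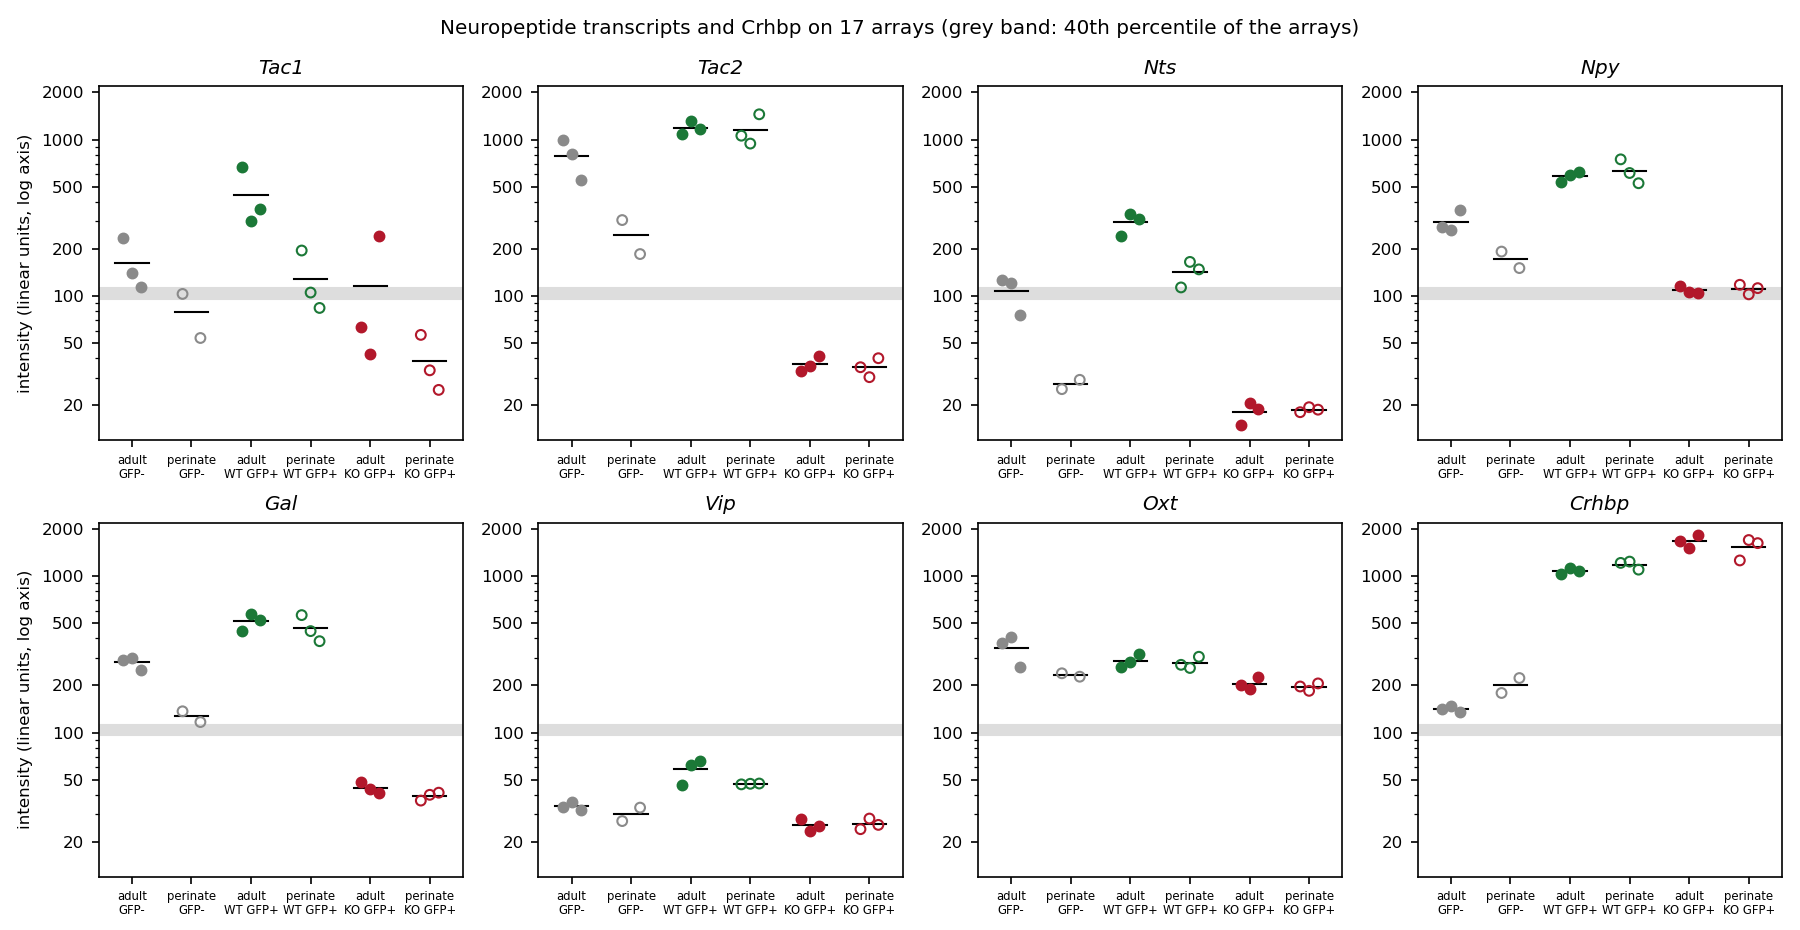
Intensity on each of the 17 arrays (linear RMA units, log axis) for the 8 genes, by group: grey GFP-, green WT GFP+, red KO GFP+, filled symbols for adults and open ones for perinates, bars for group means. The grey band is the range of the arrays' 40th percentiles (96.2 to 112): Tac2, Nts and Gal lie below it on all KO arrays, Vip on all 17, and Crhbp above it on all 17.

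The comparison of KO with WT GFP+ cells addresses which transcripts depend on Aire in cells that have its locus active. Since the genes were picked from results that include it, it is given here as a description, without p-values for them. At both ages, KO and WT arrays did not overlap for any of the 8 genes: the 7 peptide precursors were lower without Aire and Crhbp was higher. Differences are log2 of KO minus WT from 1 limma model of the 6 group means, with standard errors, and folds come from the mean log2 values. Where every array of the lower group lay under its own 40th percentile, the reading is called dim, the exact fold is that of the readings only, and a bound is given beside it, with the 40th percentile in place of the dim readings.

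Tac2 encodes the precursor of neurokinin B, a tachykinin best known from hypothalamic neurons that control reproduction. Its probe set read 1083, 1324 and 1165 on adult WT GFP+ arrays 6, 7 and 8 and 33.1, 35.6 and 41.3 on adult KO arrays 1, 2 and 3. In perinates it read 1059, 943 and 1451 on WT arrays 5, 6 and 7 and 35.1, 30.3 and 40.1 on KO arrays 1, 2 and 3. Every KO value was thus far below every WT value. The difference was -5.02 ± 0.22 (SE) in adults, 32.5-fold as read and at least 11.6-fold, and -5.02 ± 0.22 in perinates, 32.4-fold as read and at least 11.5-fold. On the KO arrays the probe set lay between the percentiles 12.3 and 17.5 of all probe sets, in the dimmest part of the array's range.

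Tac1, the precursor of substance P and neurokinin A, varied far more between arrays. Adult WT GFP+ arrays 6, 7 and 8 read 666, 300.03 and 359, and adult KO arrays 1, 2 and 3 read 63.6, 42.6 and 242. KO array 3 was well above KO arrays 1 and 2 and still below every WT array. Perinate WT arrays 5, 6 and 7 read 196, 105 and 84.0, and perinate KO arrays 1, 2 and 3 read 56.5, 33.6 and 25.2. The difference was -2.26 ± 0.52 in adults (4.79-fold lower) and -1.73 ± 0.52 in perinates (3.31-fold as read, at least 1.22-fold). Adult KO arrays 1 and 2 and perinate WT arrays 6 and 7 lay under their own 40th percentiles, so the adult fold too rests partly on such readings.

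Nts encodes the precursor of neurotensin and neuromedin N, made in gut endocrine cells and brain. It read 241, 336 and 312 on adult WT GFP+ arrays and 14.99, 20.8 and 19.1 on adult KO arrays. On perinate WT arrays it read 114, 165 and 148, and on perinate KO arrays 18.1, 19.5 and 18.8. The KO levels were alike at the 2 ages while the WT level was higher in adults. The difference was -4.02 ± 0.19 in adults (16.2-fold as read, at least 2.87-fold) and -2.90 ± 0.19 in perinates (7.48-fold as read, at least 1.43-fold), and on KO arrays Nts lay between the percentiles 3.3 and 6.7, among the dimmest probe sets.

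Npy, the precursor of neuropeptide Y of sympathetic and brain neurons, read 538, 594 and 617 on adult WT GFP+ arrays and 116, 107 and 105 on adult KO arrays. Perinate WT arrays read 748, 612 and 526 and perinate KO arrays 118, 103 and 112. The KO values sat within narrow limits at both ages, at or just above the arrays' 40th percentile. The difference was -2.41 ± 0.14 in adults (5.33-fold lower) and -2.49 ± 0.14 in perinates (5.61-fold lower).

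Gal encodes the galanin precursor, found in nerve cells of the gut and brain. Its values were 447, 572 and 523 on adult WT GFP+ arrays and 48.5, 43.7 and 40.9 on adult KO arrays. They were 563, 445 and 384 on perinate WT arrays and 36.8, 40.04 and 41.3 on perinate KO arrays. Again no KO array came near a WT array. The difference was -3.53 ± 0.14 in adults (11.5-fold as read, at least 5.01-fold) and -3.54 ± 0.14 in perinates (11.7-fold as read, at least 4.66-fold).

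The remaining precursors differed less. Oxt, which encodes oxytocin and its carrier neurophysin, read 264, 283 and 317 on adult WT GFP+ arrays and 200.5, 190.4 and 225 on adult KO arrays. In perinates it read 271, 259 and 305 in WT and 197, 185 and 206 in KO. The groups were separate at each age, by a small margin. The difference was -0.49 ± 0.14 in adults and -0.50 ± 0.14 in perinates, 1.42-fold lower. Vip, the precursor of vasoactive intestinal peptide, read 46.6, 62.3 and 66.1 on adult WT GFP+ arrays against 27.9, 23.4 and 25.4 on adult KO arrays, and 46.7, 47.1 and 47.3 against 24.1, 28.2 and 25.7 in perinates. Fitted without the brightness filter, its difference was -1.18 ± 0.12 in adults and -0.86 ± 0.12 in perinates.

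Crhbp was the exception in direction. It read 1027, 1124 and 1070.3 on adult WT GFP+ arrays and 1688, 1502 and 1841 on adult KO arrays. Perinate WT arrays read 1214, 1238 and 1099.6 and perinate KO arrays 1259, 1700.1 and 1624. Perinate KO array 1 exceeded the highest WT array only narrowly. The difference was 0.64 ± 0.12 in adults (1.56-fold higher) and 0.36 ± 0.12 in perinates (1.28-fold higher).

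By the call rule, adjusted p under 0.05 over the 13842 genes tested, 6 of the 7 tested genes were called lower and 1, Crhbp, higher at each age. Over all genes tested, 10.8% were called lower and 9.06% higher in adults, and 13% and 13.5% in perinates, in all 19.9% and 26.5%. Both called and at least 2-fold lower were Tac1, Tac2, Nts, Npy and Gal at each age, beside 4.38% and 4.28% of all genes. Groups did not overlap, with KO lower, for 16.9% of all genes in adults and 18.2% in perinates, and with KO higher for 23.4% and 24.9%. As the choice of genes used this contrast, nothing is read from these counts. The median difference of the 7 was -2.41 in adults and -2.49 in perinates, beside 0.06 and 0.09 for all genes tested.

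Without perinate KO arrays 2 and 3, which leaves KO array 1 alone and assumes that it varies like the other groups, the perinate differences of Tac2, Nts, Npy and Gal were -5.01, -2.96, -2.40 and -3.64 and stayed called. Those of Tac1 (-1.09), Oxt (-0.49) and Crhbp (0.09) did not, so that 4 of 7 were called. Among arrays left out 1 at a time in perinates, the call of Tac1 ended without WT array 5 (-1.38) or KO array 2 (-1.67) or 3 (-1.46), and that of Oxt without WT array 7 (-0.44) or KO array 2 (-0.46). The call of Crhbp in perinates ended without WT array 5 (0.38) or 7 (0.31), without KO array 2 (0.27) or 3 (0.31), with quantile normalization (0.28) and in a fit to those groups alone. In adults the call of Oxt ended without WT array 8 (-0.41), KO array 1 (-0.47) or KO array 2 (-0.43).

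Levels of other cells' markers also differed between KO and WT GFP+ arrays. The summed intensity of 5 fibroblast markers was 2007 to 2296 in adult WT and 3793 to 4171 in adult KO, and 3596 to 4553 and 4707 to 4942 in perinates, with 2 of 5 called higher and 1 lower at each age. That of 5 dendritic cell and macrophage markers was 1070 to 1205 in adult WT and 724 to 928 in adult KO, and 817 to 933 and 635 to 724 in perinates. Of the 4 of them that were tested, 3 were called lower in adults and 2 in perinates, and the defining marker Itgax was dim on all 17 arrays. The 8 measured neuroendocrine markers summed to 2148 to 2526 in adult WT and 1947 to 2231 in adult KO, and to 1479 to 2010 and 1333 to 1872 in perinates, so those ranges overlapped. Of 6 neuron markers 3 were tested, and 2 were called lower at each age, dim on all KO arrays of that age. The 4 endothelial markers summed to 456 to 502 in adult WT and 525 to 681 in adult KO. In perinates they summed to 438 to 537 and 550 to 708, with 0 called at either age. The 2 Schwann cell markers summed to 198 to 238 and 173 to 187 in adults. In perinates these were 211 to 268 and 153 to 167. Sums of neuron, thymocyte and cortical epithelial markers overlapped. None of these markers is listed at 0. Their part in the results was not tested.

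**Figure D2:**
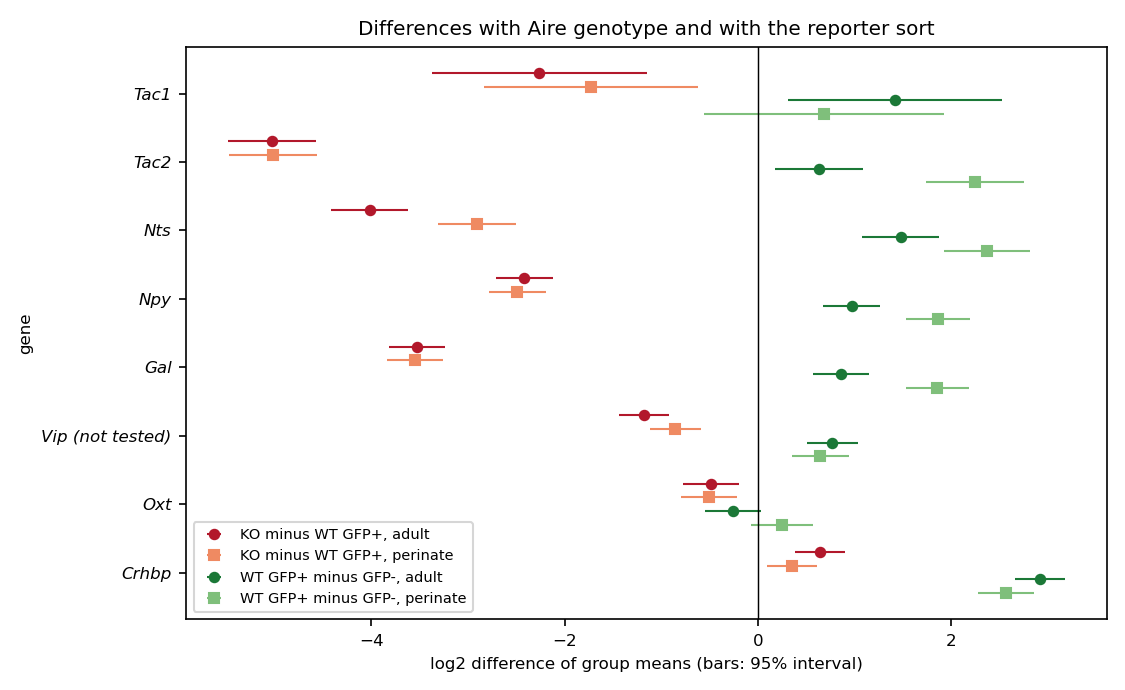
Log2 differences of group means with 95% intervals from the limma model, by gene: red and orange for KO minus WT GFP+ cells, dark and light green for WT GFP+ minus GFP- cells, in adults and perinates. The peptide genes lie left of 0 by genotype, from -5.02 for Tac2 to -0.49 for Oxt in adults, and Crhbp lies right of 0 in all 4 comparisons. Vip is drawn from a fit without the brightness filter.

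The difference of the 2 knockout effects, perinate minus adult, is a description too, since it is built from the contrasts behind the choice of genes. Of the 7 genes, 0 were called by limma at an adjusted p under 0.05, beside 1.21% of all genes tested (0.722% higher, 0.484% lower), and Nts came closest. For Nts the difference of the readings was 1.11 ± 0.27 (95% interval 0.55 to 1.68). Its KO readings were dim and alike at both ages, so this value follows the WT level, which was lower in perinates by 1.06 on the log2 scale. Nts was called with array weights (1.14), in a fit to the groups compared, with 32 added before the log (0.93), with quantile normalization (1.15), without the brightness filter, and without perinate WT array 6 (1.23) or adult WT array 6 (1.26).

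For Tac2 and Gal, whose KO readings were dim at both ages, the difference of the effects as read was 0.01 and -0.01, and it does not bound how far the effects themselves could differ. For genes that were not dim in KO cells the interval ran from -0.49 to 0.34 for Npy, from -0.43 to 0.39 for Oxt and from -0.65 to 0.08 for Crhbp. For Tac1 it was wide, from -1.04 to 2.10.

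The GFP- arrays are outside the group means of the knockout comparison, though they count in its pooled variance and in the brightness filter. Setting them against WT GFP+ cells shows where each transcript sits within the WT medulla, though the WT GFP+ arrays are shared with the comparison above, so these differences too are a description. In adults the 6 genes Tac1, Tac2, Nts, Npy, Gal and Crhbp were higher in GFP+ cells, and in perinates the same genes other than Tac1 were. Crhbp differed most, 7.57-fold in adults and 5.91-fold in perinates, and Oxt least.

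Tac2 in GFP- cells read 1001, 814 and 553 on adult arrays 6, 7 and 8 and 306 and 186 on perinate arrays 1 and 2. The adult GFP- cells were therefore close to the GFP+ cells, at a difference of 0.63 ± 0.22 (1.55-fold), and the perinate ones were not, at 2.25 ± 0.24 (4.75-fold). Every GFP- array, at both ages, was above every KO array for this gene.

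Nts read 127, 120.5 and 76.2 on adult GFP- arrays and 25.4 and 29.2 on perinate GFP- arrays. The GFP+ cells were higher by 1.48 ± 0.19 in adults (2.79-fold) and by 2.37 ± 0.21 in perinates (5.16-fold as read, at least 1.33-fold). Npy read 277, 266 and 355 in adult and 192 and 151 in perinate GFP- cells, differences of 0.97 ± 0.14 (1.96-fold) and 1.87 ± 0.16 (3.65-fold). Gal followed the same order: GFP- cells read 291, 301 and 253 in adults and 137 and 117 in perinates, and the GFP+ cells were higher by 0.86 ± 0.14 (1.82-fold) and 1.86 ± 0.15 (3.62-fold). For these 3 genes as well, and for Oxt, no KO array reached the level of any GFP- array of its age. KO GFP+ and WT GFP- cells differ in both genotype and sort. The share of all genes with such a gap was not counted, so nothing is read from it, here or for Tac2.

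Tac1 in GFP- cells read 236, 139.8 and 114 in adults and 103 and 54.0 in perinates. The adult GFP+ arrays were all above these, by 1.42 ± 0.52 (2.67-fold), while in perinates the ranges overlapped (0.69 ± 0.59). Oxt ran the other way in adults, with 374, 407 and 263 in GFP- cells, so that the groups overlapped (-0.25 ± 0.14 for GFP+ minus GFP-). In perinates Oxt read 239 and 228 in GFP- cells, just under all GFP+ arrays (0.25 ± 0.15).

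Crhbp read 141, 149 and 136 on adult GFP- arrays and 179 and 223 on perinate GFP- arrays. These levels lie below every GFP+ array, WT or KO. The difference was 2.92 ± 0.12 in adults and 2.56 ± 0.14 in perinates. Vip read 31.8 to 36.2 in adult and 27.2 to 33.2 in perinate GFP- cells, under all WT GFP+ arrays of the same age.

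Called as higher in GFP+ cells were 6 of 7 genes in adults, beside 24.7% of all genes tested (20.1% lower, 44.9% in all), and 5 of 7 in perinates, beside 23% (20.5% lower, 43.5% in all). Groups did not overlap, with GFP+ higher, for 6 of 7 at each age, beside 30.6% and 28.9%. In adults the call of Tac2 ended without GFP- array 8 (0.39) or WT GFP+ array 7 (0.55) or 8 (0.64). The call of Tac1 ended without GFP- array 7 (1.34) or 8 (1.19), without WT GFP+ array 6 (1.08) or 8 (1.52), and with a robust variance trend. Oxt was called lower in adult GFP+ cells with array weights (-0.33) and without GFP- array 8 (-0.44).

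The age comparison in GFP- cells uses arrays outside the group means of both knockout contrasts, and it was tested. It may still have guided the choice of genes, since the deciding values are not recorded, so its p-values are no independent test. The same holds for the age comparisons in GFP+ cells below. Perinate GFP- cells had less Tac2, Nts, Npy, Gal and Oxt than adult GFP- cells, and more Crhbp. Tac2 was 3.22-fold lower in perinates (-1.69 ± 0.24, adjusted p = 2.60e-05). For Nts the readings differed by -1.95 ± 0.21 (adjusted p = 1.32e-06), but the perinate arrays were dim, at percentiles 9.2 to 10.5, and the adult arrays lay at percentiles 31.2 to 44.3, so no fold is given. Gal was 2.22-fold lower (-1.15 ± 0.15, adjusted p = 1.18e-05). Gal and Tac2 were not dim in either group. Npy was 1.74-fold lower (-0.80 ± 0.16, adjusted p = 0.000482) and Oxt 1.47-fold lower (-0.55 ± 0.15, adjusted p = 0.00728).

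Crhbp was 1.41-fold higher in perinate GFP- cells (0.50 ± 0.14, adjusted p = 0.00686). Tac1 had a difference of -1.06 ± 0.59, with an interval of -2.30 to 0.18 and an adjusted p of 0.151, although its arrays did not overlap. With 5 called lower and 1 higher of 7, the set stood beside 24.2% and 22.2% of all genes tested, 46.4% in all. Arrays did not overlap for 6 of 7 with perinates lower and 1 with perinates higher, beside 30.1% and 30.4%.

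There are 2 perinate GFP- arrays, and 2 of these calls turn on array 2: without it Oxt was at -0.52 (adjusted p = 0.0509) and Crhbp at 0.34 (0.117). In a fit to these groups alone, Oxt missed the threshold (0.0568) and Tac1 passed it (0.0391). Other features of the sort moved with age too. Aire read 495 to 930 in adult and 270 to 351 in perinate GFP- cells, and Cd80, a marker of mature medullary cells, 1889 to 2725 and 384 to 671. The 10 medullary markers summed to 35001 to 37947 in adults and 28161 to 29544 in perinates, with 6 called lower. The 5 cortical epithelial markers summed to 3257 to 5143 in adults and 12609 to 13110 in perinates, with 4 called higher, among them Prss16 by 2.81 and Psmb11 by 1.90. The 8 neuroendocrine markers summed to 1947 to 2453 in adults and 839 to 908 in perinates, with 4 of 4 tested called lower. Their part in the differences of the peptide genes was not tested.

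In WT GFP+ cells fewer of the genes were called with age than in GFP- cells, as were fewer of all genes tested (22.2% against 46.4%). Tac1 was 3.46-fold lower in perinates (-1.79 ± 0.52, adjusted p = 0.0216) and Nts 2.09-fold lower (-1.06 ± 0.19, adjusted p = 0.000959), 2 of 7 called lower beside 13.6% of all genes tested (8.52% higher, 22.2% in all). For both, no perinate array reached an adult one, as for 21.8% of all genes. For Tac1 that rests on single arrays: without adult array 6 it was at -1.45 (adjusted p = 0.0912), without perinate array 6 at -1.70 (0.0588) and without perinate array 7 at -1.53 (0.0854). Perinate arrays 6 and 7 also placed Tac1 under their own 40th percentiles, so its fold rests partly on such readings.

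The other tested genes gave intervals around 0. The interval ran from -0.53 to 0.39 for Tac2 (adjusted p = 0.852), from -0.20 to 0.39 for Npy (0.662), from -0.45 to 0.13 for Gal (0.433), from -0.34 to 0.24 for Oxt (0.839) and from -0.12 to 0.40 for Crhbp (0.439).

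In KO GFP+ cells 0 of 7 genes differed with age by limma at an adjusted p under 0.05, beside 26% of all genes tested (12.7% lower, 13.4% higher). Tac1 came closest to that threshold. With the perinate readings dim, its difference was -1.26 ± 0.52 (interval -2.37 to -0.15, adjusted p = 0.0886). It was called with array weights (-1.31, adjusted p = 0.0231) and without adult KO array 2 (-1.77, 0.0296). Adjusted p-values of the other 6 ran from 0.390 to 0.929. Without perinate KO arrays 2 and 3 the difference of Tac1 was -0.62 (adjusted p = 0.636).

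**Figure D3:**
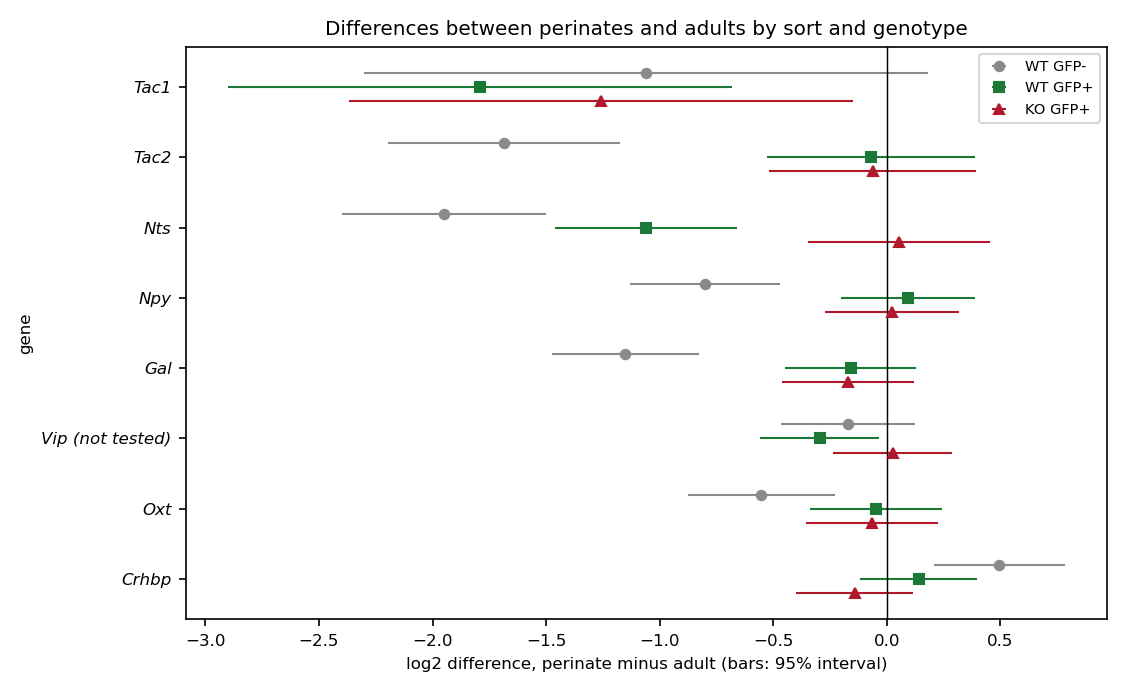
Log2 difference, perinate minus adult, with 95% intervals from the limma model, in WT GFP- (grey), WT GFP+ (green) and KO GFP+ cells (red), for the 8 genes; Vip is drawn from a fit without the brightness filter. In GFP- cells Tac2, Nts, Npy, Gal and Oxt lie left of 0 with intervals clear of it, while in KO cells every interval other than that of Tac1 spans 0.

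The GFP+ to GFP- difference in perinates minus that in adults is likewise built from contrasts that may have guided the choice, and is given without p-values. It was larger in perinates for Tac2 by 1.62 ± 0.32, for Gal by 0.99 ± 0.21, for Npy by 0.90 ± 0.21 and for Nts by 0.89 ± 0.28, where the perinate GFP- readings of Nts were dim. By the call rule these were 4 of 7, beside 10.7% of all genes called higher, 9.28% called lower and 20% in all, from which nothing is read. Tac2 read at a similar level in GFP+ cells of both ages and lower in perinate than in adult GFP- cells.

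The call of Nts ended with 32 added before the log (0.31), in a fit to the groups compared, without adult GFP- array 6 (0.75) or 7 (0.79), perinate GFP- array 1 (0.79) or 2 (0.99), adult GFP+ array 6 (0.75), or perinate GFP+ array 6 (0.77) or 7 (0.85). Oxt had 0.50 ± 0.21 and was called without adult GFP- array 8 (0.69). Crhbp had -0.36 ± 0.18 and Tac1 -0.73 ± 0.79. These differences share the cortical and medullary marker differences of the GFP- arrays given above.

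Ordered by group mean, Tac2 was highest in WT GFP+ cells. WT GFP+ cells of adults (1191 ± 122, SD, n = 3) and perinates (1151 ± 266, n = 3) lay within their spread of each other, adult GFP- cells followed (789 ± 225, n = 3) and overlapped the perinate WT GFP+ arrays, then came perinate GFP- cells (246 ± 85.2, n = 2), and the KO cells of adults (36.6 ± 4.20, n = 3) and perinates (35.2 ± 4.88, n = 3) were last and again within their spread. Gal and Npy kept that order, with the neighbours at the top and at the bottom again within their spread of each other. Gal ran from 514 ± 63.2 and 464 ± 91.2 over 282 ± 25.8 and 127 ± 14.2 to 44.4 ± 3.83 and 39.4 ± 2.34. Npy ran from 628 ± 112 in perinate and 583 ± 40.3 in adult WT GFP+ cells over 299.5 ± 48.4 and 172 ± 29.3 to 111 ± 7.84 in perinate and 109 ± 6.26 in adult KO cells.

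The other genes had orders of their own. Nts ran from adult WT GFP+ (296 ± 49.4) over perinate WT GFP+ (142 ± 26.4), adult GFP- (108 ± 27.6) and perinate GFP- cells (27.3 ± 2.64) to the KO cells (18.8 ± 0.692 in perinates and 18.3 ± 2.97 in adults), perinate WT GFP+ and adult GFP- arrays overlapping, as did the KO ages. Tac1 ran from 442 ± 197 in adult WT GFP+ over 163 ± 64.0 in adult GFP-, 128 ± 59.2 in perinate WT GFP+, 116 ± 109 in adult KO and 78.6 ± 34.8 in perinate GFP- to 38.4 ± 16.2 in perinate KO cells, and below the first group the arrays of neighbouring groups overlapped. Oxt was highest in adult GFP- cells (348 ± 75.1), then 288 ± 26.8 and 278 ± 24.0 in adult and perinate WT GFP+, 233 ± 8.24 in perinate GFP-, and 205 ± 18.0 and 196 ± 10.7 in adult and perinate KO cells, where the first 3 groups overlapped, as did the KO ages. Crhbp ran from 1677 ± 169.5 in adult KO and 1528 ± 236 in perinate KO over 1184 ± 73.9 in perinate and 1074 ± 48.8 in adult WT GFP+ to 201 ± 31.2 in perinate and 142 ± 6.44 in adult GFP- cells, with the arrays of the KO ages overlapping and those of the WT GFP+ ages too. Vip ran from 58.3 ± 10.4 and 47.0 ± 0.300 in adult and perinate WT GFP+ over 33.9 ± 2.24 and 30.2 ± 4.21 in adult and perinate GFP- and 26.0 ± 2.06 in perinate KO to 25.6 ± 2.24 in adult KO cells.

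Likeness between genes was measured as Pearson's r of log2 intensity over the 17 arrays, which share groups and arrays, and is a description. Among the 8, Tac2 and Gal were most alike (r = 0.986), followed by Npy and Gal (0.970). Tac1 had r of 0.62 to 0.75 with the other 6 precursors, and Crhbp ran from -0.55 with Oxt to 0.04 with Vip. Of all genes tested, Ly6g (0.997) and Muc5ac (0.993) were most like Tac2, and Ly6a2 (0.991) and Ly6g (0.991) most like Gal. Akr1c18 (0.989) and Car1 (0.986) were nearest to Nts, Crabp1 (0.984) and Zp3 (0.980) to Npy, Fa2h (0.969) and Clps (0.932) to Oxt, and Lcn11 (0.971) and Hba-x (0.970) to Vip. Crhbp was most like Tnfrsf10b (0.982) and Dnmt3l (0.979). Tac1 had the weakest likeness, with Rnase2a at 0.875 and Acp5 at 0.862.

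Other peptide precursors were set beside the 8 genes from a list of 52, of which 50 have a probe set with a single symbol and 43 were tested. KO GFP+ cells had 24 of 43 called lower and 0 called higher in adults, with a median of -0.63, beside 10.8% and 9.06% of all genes and a median of 0.06, and 11 of the 24 were dim on all adult KO arrays, so that these may have passed the brightness filter through the higher groups. In perinates 29 were called lower and 1 higher, beside 13% and 13.5%, with a median of -0.55. Here 15 of the 29 were dim on all perinate KO arrays, with the same limit. Rln3, the relaxin-3 precursor, was lower by the most: -4.14 in adults (adjusted p = 6.66e-11) and -3.27 in perinates (1.85e-09). Sst, the somatostatin precursor, was at -3.05 and -2.65, Penk, the enkephalin precursor, at -2.86 and -2.92, and Ppy, the pancreatic polypeptide precursor, at -2.83 and -2.62, all called. Adm2, which encodes a peptide of the calcitonin family, was the gene called higher in perinates (0.50, adjusted p = 0.00476), and was not called without perinate KO arrays 2 and 3.

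The counts moved with the settings. With the filter at the 60th percentile, 23 precursors were tested and 17 were lower in adults and 16 in perinates, and without perinate KO arrays 2 and 3 the perinate count was 21. The difference of the knockout effects as read was called for 3 of 43 precursors, beside 1.21% of all genes. They were Nppa, the atrial natriuretic peptide precursor (1.39), Iapp, the amylin precursor of islet beta cells (1.30), and Cck, the cholecystokinin precursor (0.98). The readings of Nppa and Cck were dim in KO cells of both ages and those of Iapp in adult KO cells. All 3 may have been admitted by the arrays where they are high, so no p-values are given. Their values do not bound how far the effects themselves could differ. The call of Nppa held with each array left out, while that of Iapp ended in 11 of 12 such fits and that of Cck in 5 of 12. Without perinate KO arrays 2 and 3, Iapp was not called (1.505). In GFP- cells 14 of 43 were lower in perinates and 3 higher, beside 24.2% and 22.2% of all genes, with Rln3 (-1.96), Grp (-1.80), Nppa (-1.62) and Calcb (-1.58) the largest. The call of Calcb ended without perinate GFP- array 2, which left -0.79.

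**Figure D4:**
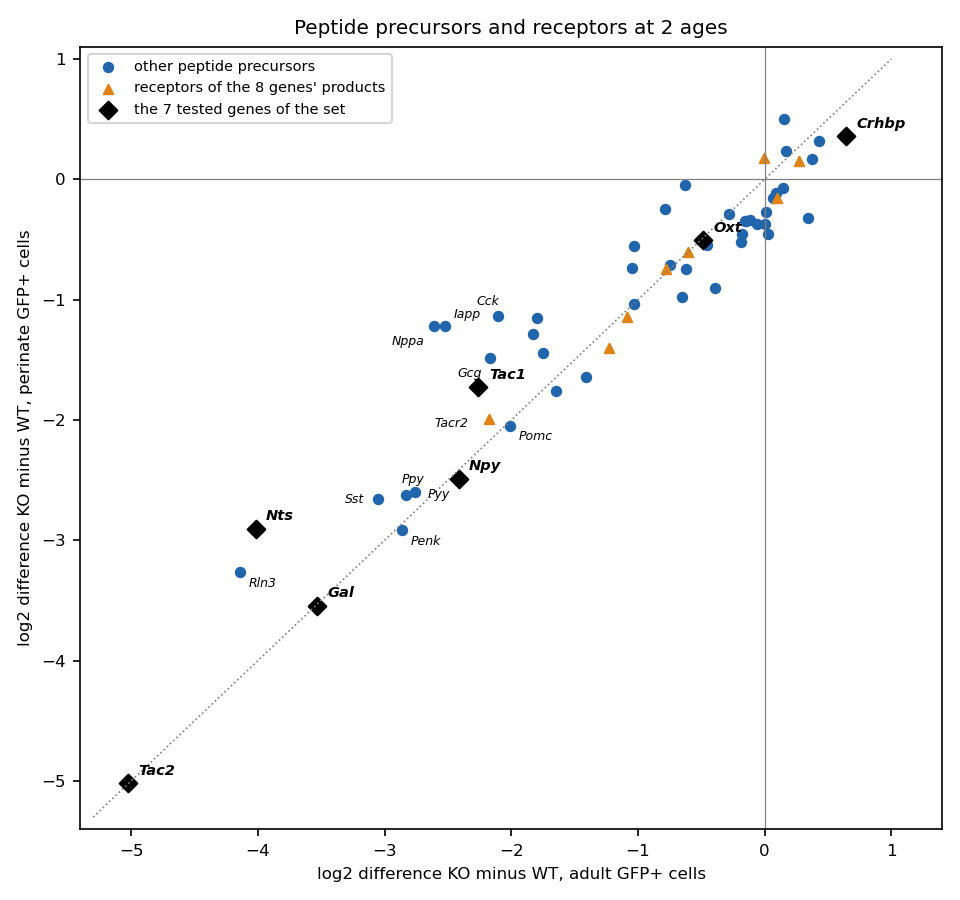
Log2 difference of KO minus WT GFP+ cells in adults (x axis) and in perinates (y axis) for the 7 tested genes of the set (black diamonds), 43 other peptide precursors (blue circles) and 8 receptors (orange triangles); the dotted line marks equal differences. Tac2, Gal and Npy lie on the line at -5.02, -3.53 and -2.41 in adults, and Nts lies above it at -4.02 and -2.90.

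Receptors of these peptides were mostly dim: 8 of 20 were tested, and the receptors Tacr3, Ntsr2, Npy1r, Npy2r, Npy4r, Npy5r, Npy6r, Oxtr, Galr1, Galr2, Crhr2 and Vipr2 were not. Of the 8, 5 were called lower in KO GFP+ cells at both ages, beside 10.8% and 13% of all genes, and 4 were in perinates without perinate KO arrays 2 and 3. Of the 5, the readings of Tacr2, Ntsr1, Adcyap1r1 and Vipr1 were dim on all KO arrays and may have been admitted by the arrays where they are high, so the count of those tested supports nothing by itself. Tacr2, the receptor of neurokinin A, was at -2.18 in adults and -1.99 in perinates, given without p-values for that reason. It was dim on all GFP- arrays too. It read 218 to 252 on adult WT and 48.0 to 54.2 on adult KO arrays. The bounds were at least 2.30-fold lower in adults and 1.97-fold lower in perinates. Ntsr1, a neurotensin receptor, was at -1.23 and -1.40, and Adcyap1r1, which binds VIP weakly and its relative PACAP strongly, at -1.09 and -1.15. Crhr1, the receptor of corticotropin-releasing hormone, was at -0.78 and -0.74, and Vipr1, a VIP receptor, at -0.60 and -0.60, although with the dimmest probe set of each gene in place of the brightest Vipr1 was not called, nor was it in perinates without KO arrays 2 and 3 (-0.55, adjusted p = 0.0591). Tacr1, the substance P receptor, gave 0.27 and 0.15, Sort1, which also binds neurotensin, -0.01 and 0.18, and Galr3, a galanin receptor, 0.10 and -0.15, none called.

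Of the peptides of the corticotropin-releasing hormone family, 1 was bright enough to test. Crh, Ucn2 and Ucn3 were dim on all 17 arrays. Ucn, the urocortin precursor, read 106 to 120 on adult WT GFP+ and 111 to 113 on adult KO arrays, with a difference of 0.01 in adults and -0.27 in perinates. The perinate call (adjusted p = 0.0384) ended in 4 of 6 fits with 1 of the compared arrays left out, and without perinate KO arrays 2 and 3 (0.176).

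Machinery that cuts and stores peptides was followed on lists of its own. Of 6 tested processing enzymes and helpers out of 9, 1 was lower in KO adults, the protease Furin (-0.68, adjusted p = 0.00194), and 2 in KO perinates, the carboxypeptidase Cpe (-0.47) and the convertase inhibitor Pcsk1n (-0.41), beside 10.8% and 13% of all genes. The readings of Cpe were dim in perinate GFP+ cells of both genotypes. Cpe was not called without KO array 3, Pcsk1n without WT array 5 or 7 or KO array 1 or 2, and neither without KO arrays 2 and 3. Of 9 tested granule proteins out of 12, 5 were lower in adults and 4 in perinates, beside the same shares, and 3 in perinates without KO arrays 2 and 3. Of those called lower, 1 in adults and 2 in perinates were dim on all KO arrays and may have been admitted by the arrays where they are high. Slc18a2, the vesicular monoamine transporter, was at -2.04 in adults, where its KO readings were dim, at least 2.48-fold lower. Chga, the granule protein chromogranin A, was at -1.13 and -1.99. In GFP- cells all 9 were called lower in perinates than in adults, beside 24.2% of all genes, and from 6 to 9 were with 1 array left out, 6 without perinate GFP- array 2. Chga was at -2.39, the priming factor Cadps at -2.08 and the transporter Slc18a1 at -1.70, and Chga read 956 to 1292 in adult and 188 to 218 in perinate GFP- cells. Of 9 tested peptide-degrading enzymes out of 10, 2 were lower and 1 higher in KO adults, beside 10.8% and 9.06% of all genes. Lower were Enpep (-1.64) and Ace (-1.23), both dim on all adult KO arrays, at least 2.59-fold and 2.08-fold lower. They may have been admitted by the arrays where they are high. Dpp4 was higher (0.45), and its call ended in 4 fits with 1 array left out. Enpep is also on the list of cortical epithelial markers, and how far the sort affects its level was not tested. In KO perinates Ace (-1.21, with dim KO readings, at least 2.16-fold lower), Ece1 (-1.14) and Enpep (-0.82) were lower, beside 13% of all genes. Nln was called higher there (0.33), beside 13.5%, but not in 5 of 6 fits with 1 compared array left out (without WT array 5 or 7 or KO array 1, 2 or 3, at 0.26 to 0.35), nor in the fit to those groups (adjusted p = 0.0512) or without KO arrays 2 and 3 (0.225). Of 5 tested transcription factors of neuroendocrine cells out of 12, 0 were called in KO adults and 1 in perinates, Insm1 (0.96, adjusted p = 0.00549), which was not called without perinate KO arrays 2 and 3.

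The nearest measured genes along the chromosome were set beside the 8 genes. Of 16 neighbours, 10 were tested, and 1 was lower and 2 higher in KO adults, with 0 lower and 2 higher in perinates, where 19.9% and 26.5% of all genes were called, at medians of 0.09 and 0.22. Avp, the vasopressin precursor whose start lies 6.1 kb from that of Oxt on chromosome 2, was at -0.28 (adjusted p = 0.115) in adults and -0.29 (0.0835) in perinates, and was called in adults with array weights. Myo1a, 21 kb from Tac2 on chromosome 10, was at -0.87 in adults (0.000172) and -0.12 in perinates (0.533), and on the other side Zbtb39, at 15.1 kb, was at 0.12 (0.566) and 0.32 (0.0821). Aggf1, 80.7 kb from Crhbp on chromosome 13, was higher in adults (0.61, 0.00375) and not called in perinates (0.20, 0.278). Ppp6r3, 45 kb from Gal, was higher in adults (0.37, 0.0345), a call that ended in 5 of 6 fits with 1 of the compared arrays left out. Fbxo5, 160 kb from Vip, was higher in perinates (adjusted p = 1.98e-06), as was Mrps26, 10.8 kb from Oxt (0.32, 0.0112), and the latter was not called without perinate KO array 2.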

How the data were processed

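Total RNA of sorted thymic cells was measured on 1 array per sample, of the Affymetrix type Mouse Gene 1.0 ST. The deposited values are linear intensities, made by the authors with RMA in Affymetrix Power Tools per the submitters' processing notes, with versions not given in the sources used here. RMA includes background correction and quantile normalization, and folds of dim probe sets can be compressed on such arrays. Of 24922 probe sets, 21425 carry 1 gene symbol, 1399 several and 2098 none, and the brightest probe set stood for each of 19752 genes.

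Log2 intensities of 13842 genes above the 40th percentile on at least 2 arrays were fitted in limma 3.58.1 (R 4.3.3) as 6 group means over 17 arrays, with Benjamini-Hochberg adjustment over all of them and calls at an adjusted p under 0.05. The scripts were checked on simulated data. Array medians were 144.5 to 157.1, and the median standard error was 0.13 for 3 arrays against 3.

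The members and lists were chosen with earlier results of these data known. Named are the members, at most 4 called genes per list and comparison, tested receptors, and genes of the corticotropin-releasing hormone family. By the same rule the 2 genes most like each member, the nearest measured neighbours, and Aire and G6pc2 are named. Epcam, Ptprc, Itgax, Uty, Xist and single genes behind small counts were named outside that rule, after their values were seen. Printed values come from the fit without pairing. Adult WT GFP+ and GFP- arrays with the same number deviated together (correlations of 0.50, 0.44 and 0.19), so a paired fit was run as an alternative. Upstream sequences came from RefSeq (GRCm38.p6), which matched all 8 members.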

Additional observations from a re-analysis of the deposited data

Results flagged for a closer look

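The difference between WT GFP+ and GFP- cells, perinate minus adult on the log2 scale, was called by the limma fit for 4 genes: 1.62 for Tac2, 0.99 for Gal, 0.90 for Npy and 0.89 for Nts. The genes may have been chosen with these contrasts in view, so the values are a description and carry no p-value here. In each case the GFP- arrays of perinates lay below all adult GFP- arrays, and the perinate GFP- readings of Nts were dim.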

How the results depend on the processing

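The alternatives were quantile normalization, centring each array on its median, no filter and a filter at the 60th percentile, array weights, 32 added before the log, the dimmest probe set per gene, a fit to the compared groups, a robust variance trend, perinate KO arrays 2 and 3 left out, and each array left out in turn. No called difference of the 8 genes changed sign under any of them. Of the tested genes, the knockout comparison in perinates called 7, and 4 without perinate KO arrays 2 and 3 (4 to 7 with 1 array left out). The difference of the knockout effects called 0, and 1, Nts, under quantile normalization, without the filter, with array weights, with 32 added and in the fit to the compared groups (0 to 1 with 1 array left out). The age comparison in KO cells called 0, and 1, Tac1, with array weights (0 to 1 with 1 array left out). The age comparison in WT GFP+ cells called 2, with 1 to 2 when 1 array was left out. Centring moved the median of all genes in the knockout comparison to 0.12 in adults, where it had been 0.06, and to 0.15 in perinates, where it had been 0.09.

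With the replicate number as a block, the adult GFP+ comparison called 6 of the genes, the difference of GFP effects 4, the age comparison in WT GFP+ cells 2 and that in KO cells 0, so that the replicate block changed no call among the 7. Over all genes the block moved the age comparison in WT GFP+ cells from 3067 to 1730 calls. Arrays of the 2 ages share only a number: their deviations correlated at 0.03 and 0.19 in WT GFP+ and at 0.04 to 0.06 in KO cells. The small number of arrays, 2 of perinate GFP- cells, and dim signals in KO cells limit the precision.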
